A study of Homo sapiens with 4 samples.

Results

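The Tribbles genes TRIB1, TRIB2 and TRIB3 were followed in U2OS cells, an established human osteosarcoma line, with and without knockdown of PURB. They were taken by name from the TPM table, 3 of 39519 named genes, and were chosen by the low level of TRIB2 after the knockdown, seen in these same libraries. TRIB2 is therefore described without a test, while TRIB1 and TRIB3 came in as its paralogs. Libraries of ribosomal RNA-depleted total RNA came from 2 groups. The sh-NC group was the control and received DMSO (n = 2), and the sh-PURB group carried a PURB hairpin switched on by doxycycline at 5 µg/ml (n = 2). The design gives 72 h of knockdown. PURB belongs to the PUR family, proteins that bind purine-rich single strands of DNA or RNA. Doxycycline was given to the sh-PURB group alone, so hairpin and drug cannot be told apart. The labels do not say whether the libraries came from separate cultures or clones, or whether 1 hairpin served for both knockdown libraries. What the p-values weigh is thus the variation among 4 libraries, possibly technical.

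Tribbles proteins are pseudokinases: they keep the fold of a protein kinase but bind ATP weakly or not at all, and act as scaffolds. Their C-terminal tail recruits the ubiquitin ligase COP1, and the pseudokinase domain of TRIB1 and TRIB2 presents the transcription factor C/EBP alpha to it for degradation. The same tail binds the kinase MEK1. TRIB2 also holds back FOXO transcription factors and is known as an oncogene in leukaemia and melanoma. TRIB3 binds AKT and is a classical target of ATF4 and CHOP, the transcription factors of the integrated stress response.

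TRIB2 lies on chromosome 2 at 12716889 to 12742734, plus strand (GRCh38, GENCODE annotation), and its longest coding transcript has 3 coding exons. The stretch just upstream of its first annotated start is shown because PUR proteins bind purine-rich DNA, for which the PUR element, 16 bases long, is the best known consensus. The sequence is RefSeq's (GRCh38.p14, plus strand, chr2:12716686-12716888), with a match to the first 11 bases of that consensus in capitals. The rest of the element is not matched there. The search, and the shortened element, were chosen after the sequence had been seen.
TRIB2 upstream: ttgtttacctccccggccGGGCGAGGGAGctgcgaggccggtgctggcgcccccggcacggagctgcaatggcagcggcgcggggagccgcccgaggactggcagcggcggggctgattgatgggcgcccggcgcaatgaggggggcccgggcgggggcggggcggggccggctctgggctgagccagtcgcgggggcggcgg

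The match covers 12716704 to 12716714. G and C make up 79.8% of the printed stretch. Searched on both strands, the first 11 bases of the element are present in 3.67% and the full element in 0.299% of 35116 promoter windows of 300 bases, each running from 250 bases before a RefSeq start to 50 after it. TRIB2 has 1 such window and TRIB3 has 3 overlapping ones, and TRIB1 was not searched. The TRIB3 windows cover 381045 to 381392 and lie inside its annotated span, which starts at 362835. That first annotated start of TRIB3 was not searched. The full element is in none of these windows, and its first 11 bases are in none of the TRIB3 windows. Neither gene's windows hold the composite ATF4-C/EBP motif TGATGNAA, found in 3.62% of windows, or the TCF motif CTTTGAN, found in 12.8%. These are matches of letters only, and no binding was measured in the libraries used here.

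PURB mRNA, the target of the hairpin, measured 5.29 and 6.55 TPM in the controls, against 2.46 and 2.69 TPM after knockdown, which limma passed among protein-coding genes alone (adjusted p = 0.0315) and not with all genes in the fit (0.102). TPM is a share of all transcripts scaled for length. The depth of sequencing is lost in it and is unknown here. Each library had 13298 to 14207 genes at 1 TPM or more. Of 8 bone and mesenchymal markers, 5 reached 1 TPM in every library, among them VIM, SPARC and RUNX2, but COL1A2 and the osteoblast enzyme gene ALPL stayed under 1 TPM and TWIST1 was listed at 0. The summed level of these markers was 613 to 623 TPM in the controls, against 531 to 609 TPM after knockdown. Epithelial markers summed to 4.69 to 5.59 and 4.43 to 6.30 TPM, blood cell markers to 1.54 to 1.88 and 0.840 to 1.30 TPM, and endothelial markers to 0.635 to 0.848 and 0.298 to 0.619 TPM. The sums of bone, blood and endothelial markers were lower in sh-PURB, though no blood or endothelial marker reached 1 TPM in every library. Any part of these differences in the results was not tested.

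TRIB2 was the most abundant Tribbles mRNA in control cells. It measured 34.3 and 36.3 TPM in the controls, against 4.38 and 6.49 TPM after knockdown. Both knockdown libraries lay below both controls, a gap for which the gene was chosen. The means were 35.3 ± 1.43 and 5.44 ± 1.49 TPM (SD, n = 2 each), 6.49-fold lower in sh-PURB. On the log2(TPM + 1) scale the difference was -2.51 with a standard error of 0.192, which placed TRIB2 at rank 15 from the most negative of 14269 tested genes. A gene was tested when it reached 1 TPM in at least 2 libraries, and all 3 Tribbles genes did. The TRIB2 mean exceeded that of 91.4% of tested genes in sh-NC and of 45.6% in sh-PURB. In bulk libraries fewer expressing cells and less RNA per cell cannot be told apart.

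TRIB1, the closest relative of TRIB2 in function, was also lower in both knockdown libraries. It measured 13.2 and 13.6 TPM in the controls, against 3.61 and 6.16 TPM after knockdown. The groups did not overlap, a state shared by 47.9% of tested genes, and the sh-PURB libraries differed from each other far more than the controls did. The means were 13.4 ± 0.325 and 4.89 ± 1.80 TPM (SD, n = 2 each), 2.74-fold lower. The difference of -1.33 (SE 0.240) missed the threshold in limma over all genes (adjusted p = 0.1003). When the fit was limited to protein-coding genes, with each library brought to one total, it was -1.41 and passed (limma adjusted p = 0.0241). TRIB1 lies on chromosome 8 at 125430321 to 125438405, plus strand, with 3 coding exons in its longest coding transcript.

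TRIB3 went the other way. It measured 4.31 and 3.22 TPM in the controls, against 15.6 and 9.01 TPM after knockdown. Both knockdown libraries were above both controls, with the higher value in replicate 1. The means were 3.77 ± 0.765 and 12.3 ± 4.64 TPM (SD, n = 2 each), a ratio of 3.26. With all genes in the fit the difference of 1.44 (SE 0.287) had a limma adjusted p of 0.119 and was not called. Among protein-coding genes alone it was 1.65 and passed (limma adjusted p = 0.0241). TRIB3 lies on chromosome 20 at 362835 to 397559, plus strand, with 4 coding exons in its longest coding transcript. The calls of TRIB1 and TRIB3 rest on the choice of gene set. An exact permutation test of 2 libraries against 2 cannot go below p = 0.333.

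**Figure D1:**
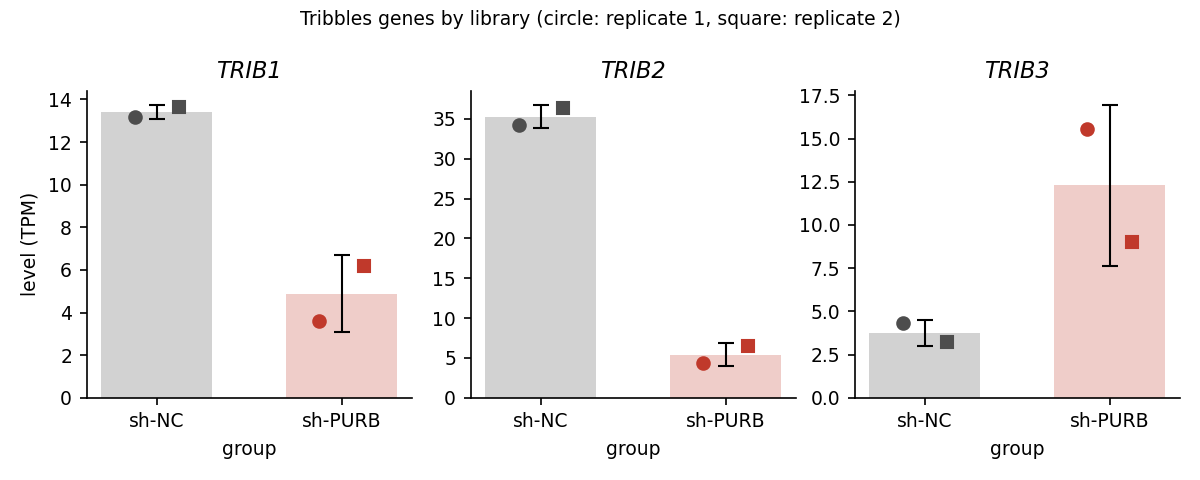
Level of each Tribbles gene in TPM (vertical axes, each from 0 and scaled separately) in the sh-NC and sh-PURB groups. Bars are means, whiskers are SD (n = 2), circles are replicate 1 and squares replicate 2. TRIB1 and TRIB2 are lower in both sh-PURB libraries and TRIB3 is higher in both.

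The order of the family was therefore different in the 2 groups. In sh-NC the order was TRIB2, TRIB1 and TRIB3, and no pair of neighbours overlapped between libraries. In sh-PURB TRIB3 came first, while TRIB2 and TRIB1 overlapped and their order cannot be told from their spread. TRIB2 made up 66.2% and 68.3% of the summed Tribbles TPM in the control libraries and 18.6% and 29.95% in the knockdown libraries. TRIB3 made up 8.32% and 6.06% in the controls, and 66.1% and 41.6% after knockdown. The share of TRIB1 was 25.5% and 25.6% in sh-NC and 15.3% and 28.5% in sh-PURB, so its groups overlapped. The summed level of the 3 genes was 52.5 ± 0.993 TPM in the controls, against 22.6 ± 1.34 TPM after knockdown (SD, n = 2 each). Mean TRIB2 went from 35.3 to 5.44 TPM. The lower TRIB1 (13.4 to 4.89 TPM) and the higher TRIB3 (3.77 to 12.3 TPM) offset each other in that sum.

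**Figure D2:**
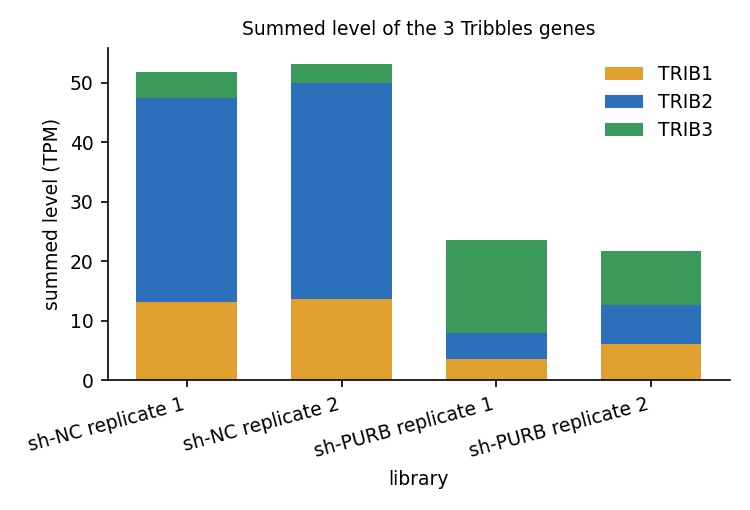
Summed TPM of TRIB1, TRIB2 and TRIB3 (vertical axis, from 0) in each of the 4 libraries, with 1 coloured block a gene. The sums are 51.8 and 53.2 TPM in the controls, against 23.6 and 21.7 TPM after knockdown, and the block of TRIB2 is the largest in the controls and that of TRIB3 the largest after knockdown.

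Ratios within a library do not depend on how libraries are scaled to each other. TRIB2 was 2.60 and 2.66 times TRIB1 in the sh-NC libraries and 1.21 and 1.05 times in the sh-PURB libraries. TRIB3 was 0.327 and 0.236 times TRIB1 in sh-NC, and 4.31 and 1.46 times in sh-PURB. Neither ratio overlapped between the groups, though the first rests on TRIB2, which was chosen for its fall. All 3 paralogs were farther from the controls in sh-PURB replicate 1 than in replicate 2. The higher of the 2 sh-PURB values was 1.71 times the lower for TRIB1, 1.48 times for TRIB2 and 1.73 times for TRIB3, against a median of 1.19 over tested genes above 0 in every library. For PURB itself that spread was 1.09. No stretch of 31 bases was shared between annotated transcripts of any of the 3 genes, so no read can match more than 1 of them over that length.

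Another transcript was listed inside the TRIB2 locus. The microRNA hairpin MIR3125 sits on the same strand at 12737367 to 12737444, in the last intron of TRIB2. It was singled out after its values were seen, and its mature sequence is shown to identify the row (RefSeq, GRCh38.p14, 20 bases, 5′ to 3′, seed at bases 2 to 8 in capitals).
hsa-miR-3125: uAGAGGAAgcuguggagaga

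The hairpin measured 17.4 and 6.95 TPM in the controls, against 3.08 TPM and a listed 0 after knockdown. Its groups did not overlap, but the control libraries differed widely, and the difference did not pass (limma adjusted p = 0.230). The libraries were not made for small RNAs. Reads of the hairpin and of unspliced TRIB2 RNA cannot be told apart.

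The genes on either side of each Tribbles gene were then read. Of the 3 nearest tested genes on each side, 13 were protein-coding, and their differences ran from -0.38 to 0.58 (log2 scale). None was called by limma over all genes or among protein-coding genes alone, with a smallest adjusted p over all genes of 0.205. Beside TRIB1, NSMCE2 of a SUMO ligase complex stood at 0.918 of control, WASHC5 at 0.977, LRATD2 at 0.724 and SQLE, an enzyme of cholesterol synthesis, at 1.51 times control. The nearest tested protein-coding gene to TRIB2 lay 889 kb away on the start side and 2424 kb away on the end side. They were LPIN1, a phosphatidate phosphatase, at 1.52 times control and NBAS at 1.06 times. GREB1 was at 1.12 times control and the helicase gene DDX1 at 1.20 times. Among noncoding genes there, LINC00276 averaged 1.29 TPM in both groups and the hairpin MIR548S was listed at 0 in each control library and reached 3.30 and 4.55 TPM after knockdown. It passed the filter only through the sh-PURB group, so no test is given. A listed 0 can be a failed estimate. Beside TRIB3, NRSN2 (3.18 kb from the annotated span of TRIB3) was at 1.06 times control and the antisense gene NRSN2-AS1 at 1.14. SOX12 was at 0.990 times control, the ubiquitin ligase gene RBCK1 (9.94 kb) at 1.26, TBC1D20 at 1.39 and the kinase subunit CSNK2A1 at 1.04.

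**Figure D3:**
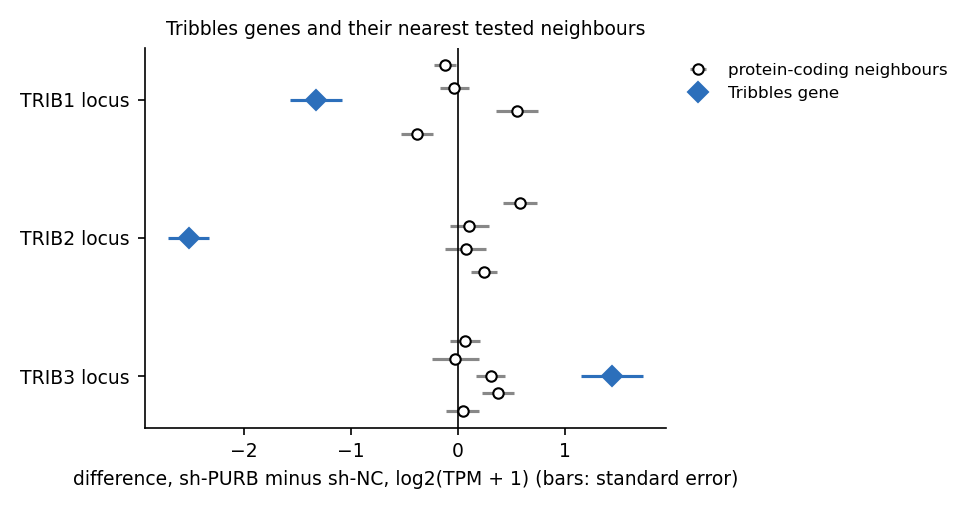
Difference on the log2(TPM + 1) scale, sh-PURB minus sh-NC (horizontal axis), of each Tribbles gene (diamond) and of the protein-coding genes among its 3 nearest tested neighbours on each side (open circles), 1 row a locus. Bars are standard errors from limma. The 13 neighbours lie between -0.38 and 0.58, with TRIB1 below all of its own neighbours and TRIB3 above all of its own.

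The partners, targets and regulators of Tribbles proteins were then read from 8 lists, 125 genes in all, of which 107 were tested. With all genes in the fit, limma passed 41 (0.287%) at an adjusted p of 0.05, of which 12 (0.0841%) were higher and 29 (0.203%) lower. Recomputing TPM after mitochondrial and very abundant genes were taken out gave 26 higher and 34 lower calls. It shifted the median over tested genes from -0.06 to 0.08. Among protein-coding genes alone 3.41% were called, 1.32% higher and 2.1% lower. Both sh-PURB libraries lay above both controls for 18.6% of tested genes and below them for 29.3%. Of the 107 list genes, 1 was called higher and 0 lower over all genes, while 27 had an unadjusted p under 0.05, as did 15.3% of all genes tested (2184 of 14269). The protein-coding fit called 5 higher and 5 lower, but 2 of the lower ones, TNFSF10 and LGR5, reached 1 TPM only in the controls and so had to differ once they passed the filter. Without overlap, 25 lay above and 30 below, near the shares over all genes.

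None of the ubiquitin ligase partners was called, where 0.287% of all tested genes and 3.41% of protein-coding ones were. At those shares short lists say little by holding 0 calls. COP1, the ligase itself, measured 11.7 and 17.0 TPM in the controls, against 11.6 and 14.9 TPM after knockdown, so its groups overlapped (ratio 0.923, limma adjusted p = 0.883). All 11 members were tested, 0 were called by limma in either fit and 1 had an unadjusted p under 0.05, beside 15.3% of all genes. That was SIAH1, a ligase reported to bind TRIB3, at 0.666 of control (7.09 ± 0.0811 against 4.73 ± 0.0729 TPM, SD, n = 2 each). The cullin CUL4A stood at 1.21 times control, SMURF1 at 0.784 and FBXW11, a beta-TrCP protein, at 0.871. The median difference of the list was 0.04, beside -0.06 for all genes tested.

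C/EBP alpha, the best known substrate, was scarcely expressed. CEBPA measured 0.691 and 0.772 TPM in the controls, against 0.557 and 0.572 TPM after knockdown, under the level needed for a test. CEBPE was listed at 0 in every library. Of the 4 tested members of the family, 0 were called by limma in either fit, beside 0.287% of all genes and 3.41% of protein-coding ones. Likewise 0 had an unadjusted p under 0.05, beside 15.3% of all genes. CEBPB and the CHOP gene DDIT3 were the most abundant of the family in control cells, with overlapping values. CEBPB was at 0.847 of control. CEBPG stood at 1.31 times control and CEBPD at 1.23 times.

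Other substrates and signalling partners were likewise uncalled in limma, 0 of 17 tested in either fit. The backgrounds were 0.287% over all genes and 3.41% among protein-coding ones. Of the 17, 2 had an unadjusted p under 0.05, beside 15.3% of all genes. MAP2K1, which encodes MEK1, was at 9.01 ± 0.764 and 8.27 ± 0.973 TPM, and AKT1 at 10.1 ± 1.57 and 9.77 ± 1.40 TPM (SD, n = 2 each), with overlapping groups for both. FOXO3, the FOXO factor most tied to TRIB2, measured 3.23 and 4.27 TPM in the controls, against 4.43 and 4.84 TPM after knockdown, a ratio of 1.24. FOXO4 was at 0.614 of control and ACACA, the acetyl-CoA carboxylase that TRIB3 and COP1 act on in fat tissue, at 1.33 times. MAP2K4 stood at 0.806 and CTNNB1, beta-catenin, at 0.804 of control. The median of this list was -0.11, and 0.03 with recomputed TPM.

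Genes of the ATF4 branch, which drives TRIB3, lay mostly higher, as was known of these samples when the list was made. ASNS, asparagine synthetase, rose 3.18-fold and was the 1 list gene called over all genes (limma adjusted p = 0.0464), a call that was lost when any library was left out. Of 18 tested members, 12 lay above both controls and 1 below, beside backgrounds of 18.6% and 29.3%, with a median of 0.29. CHAC1, a glutathione-degrading enzyme induced by ATF4, measured 0.530 and 1.29 TPM in the controls, against 7.56 and 3.66 TPM after knockdown. Its higher knockdown value was in replicate 1, and an order of 2 libraries is a description only. Any part of the ATF4 branch in the rise of TRIB3 was not tested. ATF4 mRNA itself was at 1.53 times control and NUPR1, a stress-induced chromatin protein, at 1.85 times. ASNS, CHAC1, ATF4 and NUPR1 were the 4 called higher among protein-coding genes alone. DDIT3, which encodes CHOP, measured 9.50 and 8.56 TPM in the controls, against 12.4 and 9.005 TPM after knockdown, so its groups overlapped (limma adjusted p = 0.664).

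**Figure D4:**
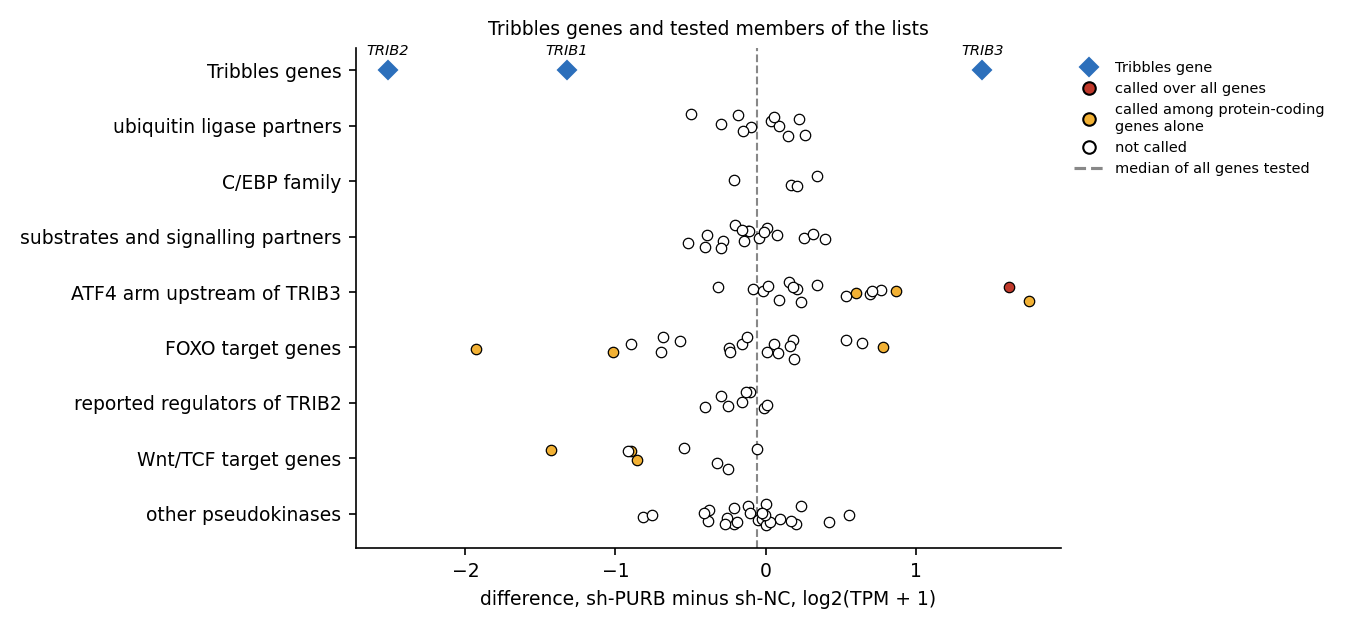
Difference on the log2(TPM + 1) scale, sh-PURB minus sh-NC (horizontal axis), of the Tribbles genes (diamonds) and of each tested list member (circles, spread vertically at random within a row). Red marks a gene called by limma over all genes, yellow one called only among protein-coding genes, and the dashed line the median of all genes tested. The ubiquitin ligase and C/EBP rows stay within -0.50 to 0.34, and all 8 Wnt/TCF targets tested lie below 0 on this scale. LGR5 among these passed the filter only through the controls and so had to lie lower.

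Target genes of FOXO factors, which TRIB2 is known to restrain, lay on both sides. Of 20 listed 19 were tested, 4 lay above both controls and 7, TNFSF10 among them, below. Over all tested genes 18.6% lay above and 29.3% below. The median was -0.13 (0.01 with recomputed TPM). In limma with all genes 0 passed and 7, TNFSF10 among them, had an unadjusted p under 0.05 (15.3% of all genes did). With no filter the median of all 20 was -0.07. TNFSF10, the death ligand TRAIL, measured 4.34 and 3.10 TPM in the controls, against 0.102 and 0.364 TPM after knockdown, and is given as values alone for the reason above. Catalase, CAT, was at 0.476 of control and was called lower among protein-coding genes alone. GADD45A, a stress gene of growth arrest, was called higher in that fit, at 1.78 times control. GABARAPL1 of autophagy stood at 0.654 of control and passed in neither fit.

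TRIB2 is itself a reported target of Wnt signalling through beta-catenin and TCF factors. Listed targets of that pathway lay mostly lower, and any part of it in the fall of TRIB2 was not tested. Of 14 Wnt/TCF target genes listed 8 were tested, with a median difference of -0.70. Of these 6 lay below both controls and 0 above, beside 29.3% and 18.6% of all tested genes. LGR5 is in these counts and in the median, though it passed the filter only through the controls and so had to lie lower. The differences of all 8 were below 0 as reported and 7 of 8 were with recomputed TPM, after quantile normalization and without sh-PURB replicate 1. As reported, 8334 of all 14269 tested genes were also below 0. Without sh-NC replicate 2 it was 6 of 8, with a median of -0.53. AXIN2, the feedback inhibitor of the pathway, measured 4.03 and 4.29 TPM in the controls, against 1.53 and 2.04 TPM after knockdown. LGR5, an R-spondin receptor, measured 1.55 and 4.32 TPM in the controls, against 0.268 and 0.477 TPM after knockdown, values that carry no test here since it passed the filter only through the controls. NOTUM, a secreted Wnt inhibitor, was at 0.468 of control and BAMBI, a decoy receptor of BMP and TGF-beta signals, at 0.366. AXIN2 and NOTUM were called lower among protein-coding genes alone, with limma adjusted p-values of 0.0492 and 0.0440. Over all genes 0 of the 8 were called by limma and 5, LGR5 among them, had an unadjusted p under 0.05, beside 15.3% of all genes. The 6 others did not reach the filter, and SP5 was listed at 0 in every library. With no filter 11 of the other 13 differences were below 0, with a median of -0.33. Most of these genes were low, and with TPM of at least 5 only 1, CCND1, was left to test.

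None of the transcription factors reported to act on TRIB2 was called, where 0.287% of all genes and 3.41% of protein-coding ones were. Of 12 listed 8 were tested, 0 were called by limma in either fit and 0 had an unadjusted p under 0.05, beside 15.3% of all genes. TCF7L2, the TCF factor tied to TRIB2 in liver cancer, measured 4.66 and 8.30 TPM in the controls, against 3.16 and 6.24 TPM after knockdown, and LEF1 was at 0.788 of control. Both overlapped between the groups. E2F3 was at 0.852 of control. CTNNB1, named above at 0.804 of control, was the 1 of the 8 below both controls, beside 29.3% of all tested genes. The median was -0.14, and -0.02 without sh-NC replicate 2.

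Other pseudokinases were used to set the family beside proteins of the same fold. Of 32 listed 27 were tested, 2 lay above both controls and 7 below, beside 18.6% and 29.3% of all tested genes. In limma 0 were called in either fit and 3 had an unadjusted p under 0.05, beside 15.3% of all genes. Their differences ran from -0.82 to 0.55, beside -1.33 for TRIB1 and 1.44 for TRIB3. The median was -0.04, but 0.11 with recomputed TPM. STK40, the nearest relative of the Tribbles and another COP1 binder, measured 6.47 and 4.98 TPM in the controls, against 9.57 and 8.12 TPM after knockdown (ratio 1.54, limma adjusted p = 0.257). The receptor pseudokinases EPHB6 and ROR2 stood at 0.465 and 0.398 of control, and STRADB, a scaffold of the LKB1 complex, at 1.36 times.

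Finally, genes with the most similar pattern were listed for each paralog. Likeness was the Euclidean distance between the 4 log2(TPM + 1) values, each centred on the gene's own mean, among 11928 other protein-coding genes. With 4 libraries it is a description only. Among the nearest to TRIB2 were the serine protease PRSS23 (distance 0.0648), the protease HTRA1, the antimicrobial peptide gene DCD and the matrix protein gene TGFBI. PRSS23 went from 7.67 and 7.87 TPM to 0.257 and 0.844 TPM. Nearest to TRIB1 were ARSJ, an arylsulfatase gene (0.101), the receptor genes GPR85 and PTGIR, TMEM176B and the dopamine receptor gene DRD1. ARSJ measured 34.3 and 38.5 TPM in the controls, against 10.4 and 17.1 TPM after knockdown. Nearest to TRIB3 were SAC3D1 (0.151), the readthrough gene NME1-NME2, GSG1, the adaptor subunit AP1M2 and the inhibin subunit INHBE. INHBE, a hormone gene known as an ATF4 target, measured 0.162 and 0.203 TPM in the controls, against 3.22 and 1.73 TPM after knockdown. SAC3D1, GSG1 and INHBE reached 1 TPM only in sh-PURB, and PRSS23 and DRD1 only in the controls. These genes had to differ once they passed the filter. Reads of NME1-NME2 cannot be separated with certainty from those of the genes it spans.

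**Figure D5:**
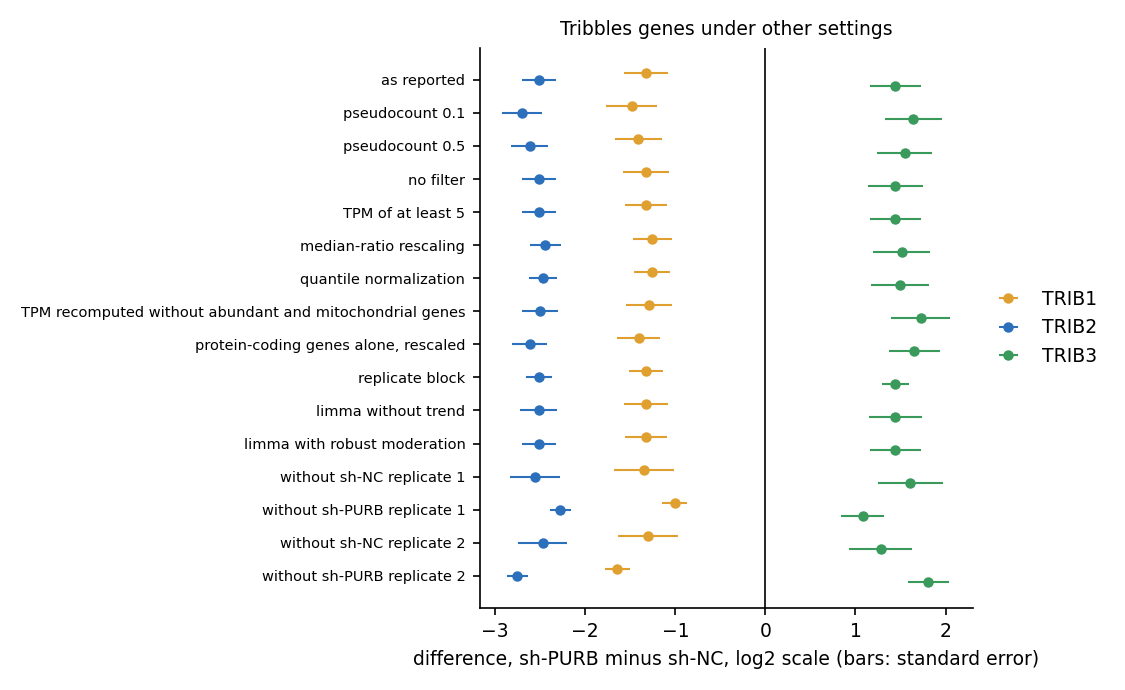
Difference of each Tribbles gene on the log2 scale, sh-PURB minus sh-NC (horizontal axis), as reported and under each alternative setting (rows). Bars are standard errors from limma. TRIB2 stays between -2.75 and -2.28, TRIB1 between -1.64 and -1.01, and TRIB3 between 1.08 and 1.81.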

How the data were processed

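The authors deposited 1 joint table of TPM by gene symbol. Per the submitters' processing notes, kallisto 0.44.0 and bcl2fastq 2.19 were used, as were DESeq2 and sleuth; GRCm38 is listed beside GRCh38 and no role is given. The annotation, the strand setting and the summing of transcripts are not given in the sources used here. A row with a blank name (0.921% to 1.66% of a library) was left out. Values were taken as log2(TPM + 1) for the 14269 genes that reached 1 TPM in 2 or more libraries and compared in limma 3.58.1 (R 4.3.3) with empirical Bayes moderation and trend, Benjamini-Hochberg adjusted over all tested genes at 0.05. Residual degrees of freedom were 2 and prior ones 2.92, or 5.68 in the fit of protein-coding genes alone. The pseudocount shrinks differences of low genes. The steps were tested on simulated data. Annotation came from GENCODE 29, sequences from RefSeq, and figures from matplotlib 3.10.9.

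Members and lists were chosen with earlier results of these data known. Named were a fixed set (the Tribbles genes, PURB and main partners), up to 4 members of smallest unadjusted p in each list and any member called, the 5 most similar protein-coding genes, and the 3 nearest tested genes on each side, though 2 noncoding ones beside TRIB1 and 1 gene similar to TRIB2 are not reported here. No protein comparison was made. Alternatives changed the pseudocount, filter, scaling, gene set, replicate block, moderation, and left out each library.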

Additional observations from a re-analysis of the deposited data

How the results depend on the processing

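TRIB1 and TRIB3 kept their direction in all 15 alternatives. Leaving out each library gave -2.75 to -2.28 for TRIB2, -1.64 to -1.01 for TRIB1 and 1.08 to 1.81 for TRIB3. Over all alternatives the limma adjusted p ran from 0.0241 to 0.320 for TRIB1 and from 0.0241 to 0.448 for TRIB3. It passed for both only among protein-coding genes alone, at -1.41 and 1.65. Prior degrees of freedom were 5.68 in that fit and 2.92 over all genes, and the part of this in the passes was not tested. The count of 41 genes called by limma was 121 with TPM of at least 5, 80 after median-ratio rescaling, 118 after quantile normalization, 407 among protein-coding genes alone, 125 with robust moderation, and 0 with a pseudocount of 0.1, no filter or no trend. The count of list genes, 1 as reported, was 10 among protein-coding genes, 2 with robust moderation, and 0 with a pseudocount of 0.1, no filter or no trend. The 10 include TNFSF10 and LGR5, which passed the filter only through the controls. The gene added by robust moderation was a FOXO target called lower, in the list that holds TNFSF10. Those 3 settings had 2155, 3031 and 2089 genes at an unadjusted p under 0.05. Leaving out any library gave 0 to 0 calls in both counts, with 1355 to 2347 genes at an unadjusted p under 0.05 and 1 residual degree of freedom. The replicate block called 118 genes and gave 0.0700 for TRIB1 and 0.0558 for TRIB3 (limma adjusted p). Same-numbered libraries share only a number in the labels, and their deviations from the group means correlated at 0.193 across genes. TPM holds no depth, so counting error is unknown.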
